A study of Homo sapiens with 12 samples.

Results

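The genes described here release iron from heme, store it, carry it between cells and control its export: the heme oxygenases HMOX1 and HMOX2, the biliverdin reductases BLVRA and BLVRB, the ferritin chains FTL and FTH1, the transferrin receptor TFRC, transferrin (TF), the iron exporter ferroportin (SLC40A1) and the hepcidin gene HAMP. They were chosen by name, 10 genes in all, with earlier results of these data known, so their counts beside all genes are descriptive only. Each gene was read from the probe set with exactly 1 gene symbol and, where a gene had several such probe sets, the highest mean. A named probe set was found for 9 of the 10, out of 18404 genes with one on the array, and FTH1 was not analysed here. All 9 exceeded the 40th percentile of their array on all 12 arrays and so were among the 13199 genes tested.

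RNA came from HepG2C3A, a human liver tumour line that keeps hepatocyte functions, and was hybridised to 12 Affymetrix Human Gene 1.0 ST arrays. The 4 groups of 3 arrays were microsystem treated (cells grown in a microsystem and given acetaminophen), microsystem control (the same culture without the drug), Petri treated (cells in Petri dishes given acetaminophen) and Petri control (dishes without the drug). Culture lasted 96 h and exposure 72 h in the groups that received acetaminophen, an analgesic that liver enzymes convert in part to a reactive quinone imine; neither the dose nor how the microsystem is built is known from the labels. All groups are 1 cell line, and no label says whether replicates were separate cultures, so the p-values reflect sample-to-sample spread that may be technical.

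Iron released from heme by heme oxygenase, together with iron taken up as transferrin through the transferrin receptor, enters a cytosolic pool that ferritin stores and ferroportin exports. Hepcidin, a peptide hormone that hepatocytes secrete, binds ferroportin and causes its degradation, and its gene responds to bone morphogenetic proteins (BMP) through SMAD proteins and to interleukin 6 through STAT3. HMOX1 is the inducible heme oxygenase, repressed by BACH1 and activated by NRF2 (gene NFE2L2) under oxidative or electrophilic stress. When iron is scarce, iron regulatory proteins bind a hairpin, the iron-responsive element, in the messengers of ferritin and ferroportin, which blocks their translation, and in that of TFRC, which stabilises it. The arrays measured RNA only, so neither translation nor protein was observed, and in bulk samples fewer expressing cells and less RNA per cell cannot be told apart.

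A pair of regulatory sequences shows elements of this control, both taken from RefSeq tables on GRCh38.p14. The first is the 250 bases before the start of HAMP (chr19:35282278-35282527, plus strand), the member with the widest range between groups, with a match to the BMP response element GGCGCC and a match to the STAT pattern TTCNNNGAA in capitals, beginning 105 and 93 bases before the start.

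HAMP promoter: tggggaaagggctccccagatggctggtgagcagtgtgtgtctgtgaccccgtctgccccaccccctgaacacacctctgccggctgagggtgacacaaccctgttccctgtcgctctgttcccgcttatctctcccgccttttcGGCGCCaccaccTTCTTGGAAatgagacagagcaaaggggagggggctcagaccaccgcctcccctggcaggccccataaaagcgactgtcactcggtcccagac

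The second is the start of the iron-responsive element of FTL (chr19:48965332-48965358, plus strand), in the 5′ untranslated region, with its loop letters in capitals.

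FTL iron-responsive element: tgtctcttgcttcaaCAGTGTttggac

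Promoter windows were found for 8 of the 10 members, 10 windows in all, and were searched on both strands. The STAT pattern occurred in the HAMP window and in no other window of a member, and it occurs in 6.57% of all 35116 windows of 250 bases. GGCGCC occurs in 16.4% of all windows, and HMOX2, BLVRA, TFRC and TF also hold it. The core of the antioxidant response element, TGANNNNGC, occurs in 35.2% of all windows and in none of the members' windows; HMOX1 is not among the windows searched. These are matches of letters and not measured binding sites.

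The deposited values are log2 intensities made by robust multi-array average (RMA), in which 1 unit is a 2-fold difference. Array medians lay between 5.556 and 5.629. Arrays of 1 group correlated with r of 0.991 to 0.995 over all probe sets, and arrays of different groups with r of 0.976 to 0.993. On the third principal component, with 6.8% of the variance, the microsystem arrays numbered 3 stood apart from the rest, at -13.9 in treated and -17.2 in control cells. Without both of them, every call given below for a member in the 4 comparisons of 2 groups remained except that of TF between treated cultures. Petri treated replicate 3 is marked with an unexplained asterisk in its description. Of 8 tested hepatocyte markers, ALB lay highest, at the 99.7th to 99.9th percentile of each array, and FGB lowest, at the 57.3rd to 72.5th. None of 4 endothelial markers passed the filter. Of 4 leukocyte or macrophage markers CD14 (44.3rd to 56.1st percentile) and CD68 (79.9th to 92.7th) passed and PTPRC and CD163 did not. The fibroblast or stellate markers, 4 of 4 tested, lay at the 41.8th to 60.8th; ALAS2, the only tested marker of 3 erythroid ones, lay at the 38.4th to 47.6th. The number of arrays limits the precision of every value.

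**Figure D1:**
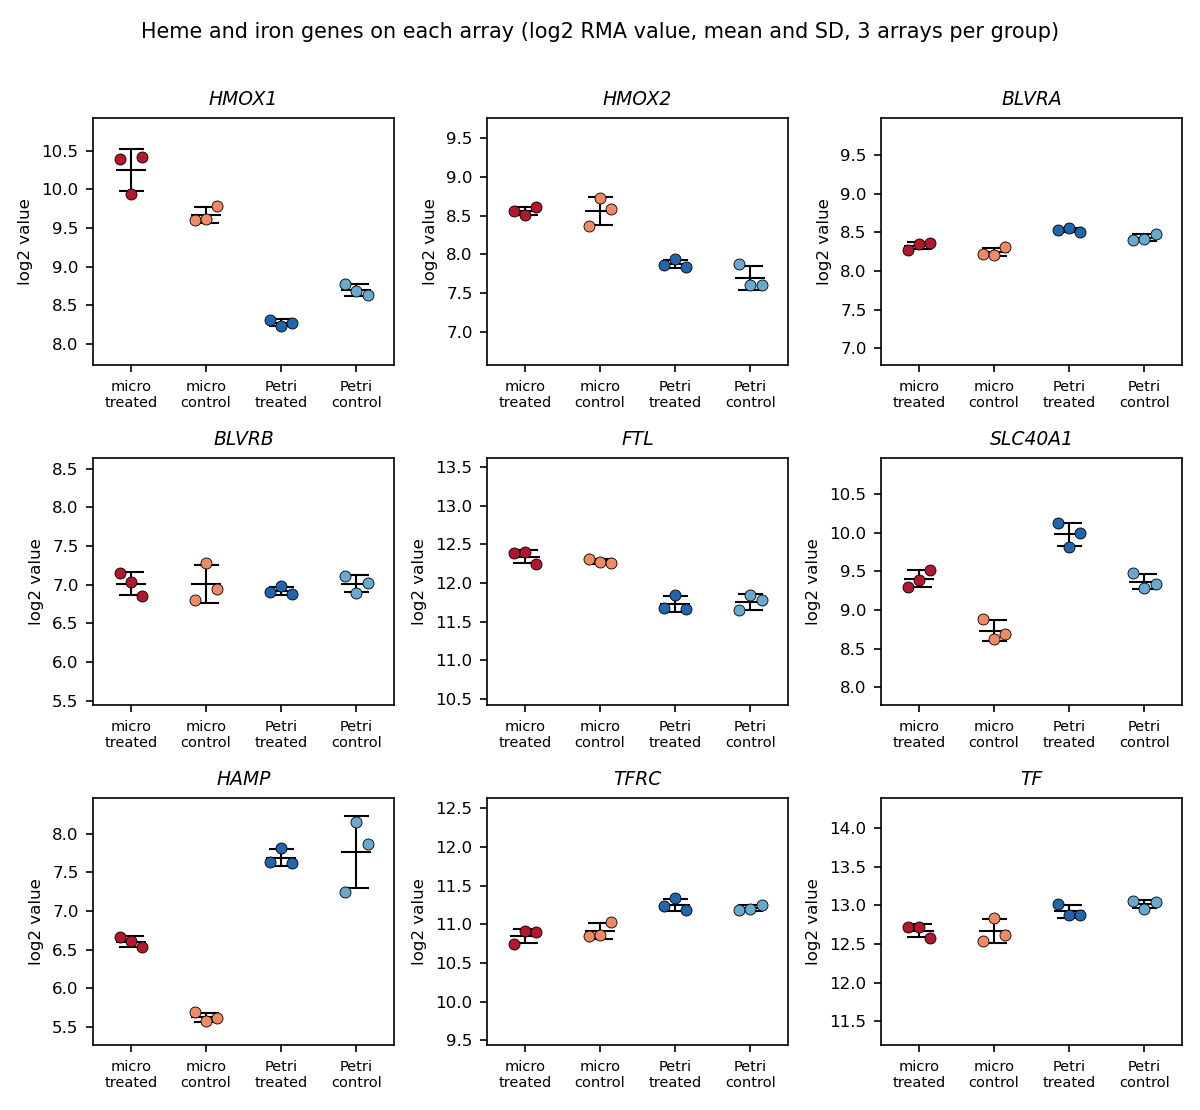
Log2 RMA values of the 9 members on each array (coloured points, 3 per group), with the group mean and SD as black bars; every panel spans the same number of log2 units, so distances compare between panels but heights do not. HMOX1 separates into 4 levels, HAMP is lowest in microsystem controls, and BLVRB overlaps in all groups.

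Differences between groups are given on the log2 scale with the SE of a limma fit over all 12 arrays, and a gene is said to have risen or fallen where the Benjamini-Hochberg adjusted p over the 13199 genes was under 0.05. Acetaminophen was compared with control within each culture, and the microsystem with Petri dishes within each treatment. The treatment comparisons share no arrays with each other, nor do the culture comparisons.

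HMOX1, the inducible enzyme that opens the heme ring, was higher in the microsystem and moved in opposite directions with acetaminophen in the cultures. It had 10.40, 9.93 and 10.42 in treated microsystem cells, against 9.61, 9.62 and 9.79 in microsystem controls. Its values were 8.32, 8.23 and 8.28 in treated Petri cells, against 8.78, 8.68 and 8.64 in Petri controls. No group overlapped another, and the order was microsystem treated, microsystem control, Petri control and Petri treated. In the microsystem HMOX1 rose by 0.58 ± 0.12 (SE) with acetaminophen, a 1.495-fold level, with adjusted p = 0.0086, and in Petri dishes it fell by 0.43 ± 0.12, to 0.745 of control, with adjusted p = 0.033. The Petri fall was not called without any single one of the 6 Petri arrays (adjusted p of 0.0574 to 0.111) or with array medians set equal (0.0506), and the microsystem rise was not called in a fit of only the arrays compared (0.0595). The microsystem level exceeded the Petri level 3.93-fold among treated cells (log2 difference 1.98, adjusted p = 8.66e-08) and 1.96-fold among controls (0.97, adjusted p = 2.13e-05).

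The treatment effect on HMOX1 differed between the cultures by 1.01 ± 0.16, with a 95% interval of 0.65 to 1.36, an unadjusted p of 3e-05 and an adjusted p of 0.0565, which did not pass. With the replicate number as a block the adjusted p was 0.038, and with a block within each culture 0.0212. It was also under the threshold with quantile normalization (0.0328), an intensity trend (0.0408) and array weights (0.011). These made 5 of the 10 alternatives other than single omissions, and the rest did not pass, with adjusted p up to 0.0721. Over all 12 single omissions, 10 of which did not pass, it ranged from 0.00233, without microsystem treated replicate 2, to 0.184. That replicate was the lowest of its group, and without microsystem control replicate 3 the adjusted p was 0.0422.

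HMOX2, the constitutive heme oxygenase, was higher in the microsystem whatever the treatment. It had 8.57, 8.51 and 8.62 in treated and 8.37, 8.73 and 8.59 in control microsystem cells, against 7.86, 7.94 and 7.84 in treated and 7.87, 7.61 and 7.61 in control Petri cells. Every microsystem array lay above every Petri array, while treated and control arrays overlapped within each culture. The microsystem difference was 0.68 ± 0.10 among treated cells (adjusted p = 0.000138) and 0.87 ± 0.10 among controls (adjusted p = 1.76e-05). The treatment difference in Petri dishes was 0.18 ± 0.10 with adjusted p = 0.27 and a 95% interval of -0.03 to 0.40, and array weights brought it past the threshold (0.24, adjusted p = 0.0346). In the microsystem the treatment difference was -0.001 with adjusted p = 0.997 and an interval of -0.22 to 0.22.

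BLVRA and BLVRB reduce biliverdin, the product of heme oxygenase, to bilirubin. BLVRA had 8.27, 8.34 and 8.36 in treated and 8.22, 8.21 and 8.31 in control microsystem cells, against 8.53, 8.55 and 8.51 in treated and 8.40, 8.41 and 8.48 in control Petri cells. All its microsystem arrays lay below all Petri arrays. It was lower in the microsystem by 0.20 among treated cells (adjusted p = 0.0307) and by 0.18 among controls (adjusted p = 0.0443), and these were the smallest differences called for a member. The call among controls was lost in 10 of 12 single omissions (all but microsystem control replicate 3 and microsystem treated replicate 1), with only the arrays compared (adjusted p = 0.114), with array medians set equal (0.0572) and with no filter (0.0611). The call among treated cells was lost in 5 of 12 (any Petri treated array and microsystem treated replicates 1 and 2) and with only the arrays compared (0.055). BLVRB stayed between 6.81 and 7.28 on all arrays, its groups overlapped throughout, and no comparison of it passed the test (adjusted p of 0.568 or higher in the comparisons of 2 groups).

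FTL, the light chain of ferritin, was higher in the microsystem and gave no call for acetaminophen. It had 12.39, 12.40 and 12.24 in treated and 12.31, 12.27 and 12.26 in control microsystem cells, against 11.68, 11.85 and 11.66 in treated and 11.65, 11.85 and 11.78 in control Petri cells. The cultures did not overlap, and treated and control arrays overlapped in each. The microsystem difference was 0.61 among treated cells (1.53-fold, adjusted p = 7.53e-05) and 0.53 among controls (1.44-fold, adjusted p = 0.00021). The treatment differences were 0.06 in the microsystem and -0.03 in Petri dishes, with adjusted p of 0.684 and 0.871. FTL has many near-identical processed copies in the genome that its probes may share, so its level is uncertain.

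SLC40A1, which encodes ferroportin, rose with acetaminophen in both cultures and was lower in the microsystem. It had 9.30, 9.38 and 9.52 in treated microsystem cells, against 8.89, 8.62 and 8.69 in microsystem controls. In Petri dishes it had 10.12, 9.82 and 9.998 in treated cells, against 9.48, 9.28 and 9.34 in controls. Treated arrays lay above control arrays in each culture, and treated microsystem cells overlapped Petri controls. The rise was 0.67 ± 0.10 in the microsystem (1.59-fold, adjusted p = 0.00207) and 0.61 ± 0.10 in Petri dishes (1.53-fold, adjusted p = 0.00224). The microsystem level was lower by 0.58 among treated cells (adjusted p = 0.000555) and by 0.64 among controls (adjusted p = 0.000232). The difference between its treatment effects was 0.06, with a 95% interval of -0.25 to 0.37.

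HAMP, the hepcidin gene, showed the widest range of group means among the members, with microsystem controls lowest and Petri controls highest, 4.37-fold apart. It had 6.67, 6.62 and 6.53 in treated microsystem cells, against 5.69, 5.58 and 5.62 in microsystem controls. In Petri dishes it had 7.63, 7.81 and 7.63 in treated cells, against 7.25, 8.16 and 7.87 in controls. The Petri groups overlapped, treated microsystem cells lay below both, and microsystem controls were lowest, at the 49.9th to 50.8th percentile of their arrays. That level is close to the array medians (5.556 to 5.629). Whether it stands above background was not tested, so fold values that rest on it are uncertain. HAMP rose by 0.98 ± 0.17 with acetaminophen in the microsystem, a 1.97-fold level, with adjusted p = 0.00376. In Petri dishes the treatment difference was -0.07 with a 95% interval of -0.42 to 0.29 and adjusted p = 0.834. Petri controls were the most variable group for HAMP (SD 0.47, against 0.10 in treated Petri cells, n = 3 each). HAMP was lower in the microsystem by 1.09 among treated cells (0.471 of the Petri level, adjusted p = 0.000184) and by 2.13 among controls (0.229 of the Petri level, adjusted p = 7.83e-07).

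The treatment effects on HAMP differed between the cultures by 1.04 ± 0.23, with a 95% interval of 0.54 to 1.55, an unadjusted p of 0.000618 and an adjusted p of 0.199. Of 12 single omissions 1 passed, that of Petri control replicate 1, with a difference of 1.30 and adjusted p = 0.00725. The other omissions did not pass, with adjusted p up to 0.516. Array weights gave 1.26 with adjusted p = 0.0295.

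TFRC, the receptor for iron-loaded transferrin, was lower in the microsystem. It had 10.74, 10.91 and 10.90 in treated and 10.85, 10.86 and 11.03 in control microsystem cells, against 11.24, 11.34 and 11.18 in treated and 11.18, 11.20 and 11.25 in control Petri cells. The cultures did not overlap, with a difference of -0.40 among treated cells (adjusted p = 0.0014) and -0.29 among controls (adjusted p = 0.00945). Treated and control arrays overlapped in each culture, and the treatment differences were -0.07 in the microsystem and 0.04 in Petri dishes (adjusted p = 0.636 and 0.786).

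TF, the plasma iron carrier made by hepatocytes, lay at the 99.6th to 99.9th percentile of every array. It had 12.73, 12.72 and 12.58 in treated and 12.54, 12.84 and 12.62 in control microsystem cells, against 13.02, 12.88 and 12.88 in treated and 13.05, 12.96 and 13.04 in control Petri cells. It was lower in the microsystem by 0.25 among treated cells (adjusted p = 0.0368) and by 0.35 among controls (adjusted p = 0.0061). The call among treated cells was lost in 6 of 12 single omissions (any treated array) and without both microsystem arrays numbered 3 (difference -0.20, adjusted p = 0.124). Neither treatment comparison of TF passed (adjusted p of 0.965 in the microsystem and 0.561 in Petri dishes).

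**Figure D2:**
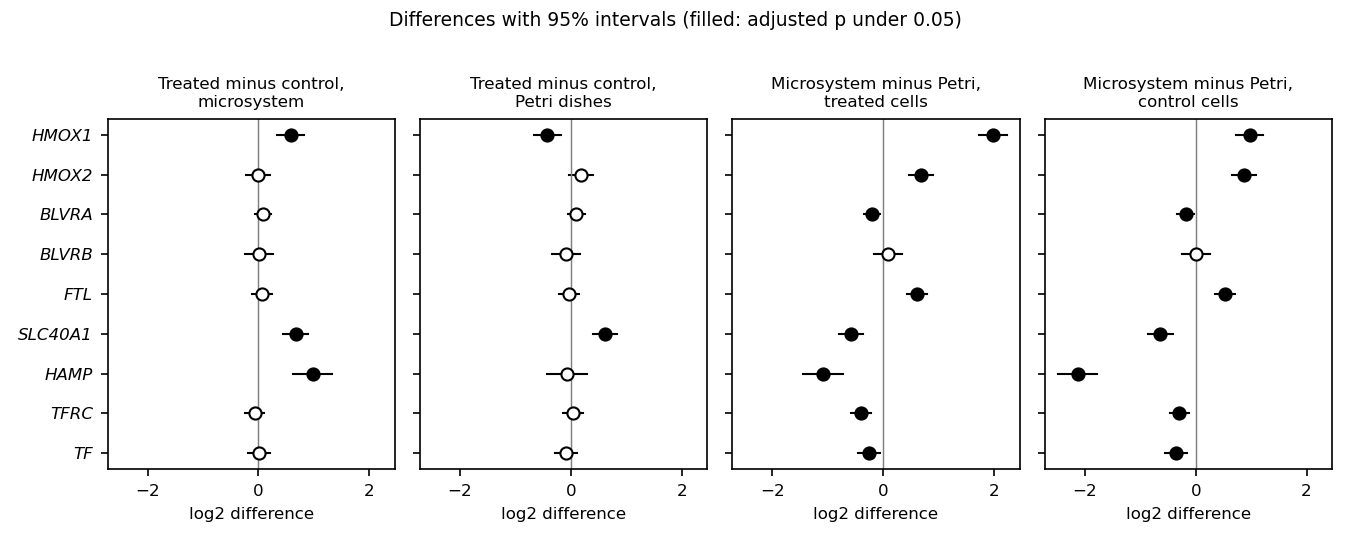
Log2 differences of the 9 members in the 4 comparisons, with 95% intervals of the limma fit as lines and filled points where the adjusted p was under 0.05. SLC40A1 is on the positive side in both treatment panels and on the negative side in both culture panels, whereas HMOX1 changes side between the treatment panels.

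Counted over the members, acetaminophen in the microsystem raised 3 of 9 (HMOX1, SLC40A1 and HAMP) and lowered none, where 9.06% of all genes tested were called, 6.39% as risen and 2.67% as fallen (843 and 353 genes, or 1045 and 236 with array medians set equal). In Petri dishes SLC40A1 rose, HMOX1 fell and 7 did not pass, where 10.4% of all genes were called, 8.38% as risen and 1.98% as fallen (1106 and 261 genes, or 1487 and 153 with array medians set equal). Treated and control arrays did not overlap for 3 members in the microsystem, against 27.6% of all genes, and for 3 in Petri dishes (BLVRA with HMOX1 and SLC40A1), against 34.5% of all genes. The median absolute treatment difference of the members was 0.07 in the microsystem and 0.09 in Petri dishes, beside 0.13 over all genes in each.

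Between cultures, 8 of 9 members were called among treated cells, 3 risen and 5 fallen, where 41.4% of all genes were called, 22.6% as risen and 18.9% as fallen. Among controls 8 of 9 were called in the same split, where 44.9% of all genes were called, 26.5% as risen and 18.3% as fallen. In both, HMOX1, HMOX2 and FTL were higher in the microsystem and BLVRA, TFRC, TF, SLC40A1 and HAMP were lower. As given above, some single omissions removed the calls of BLVRA in both comparisons and of TF among treated cells, and so lowered these counts. The same 8 did not overlap between cultures in either comparison, against 52.9% of all genes among treated cells and 52.4% among controls. The median absolute culture difference was 0.58 over the members and 0.22 over all genes among treated cells, and 0.53 and 0.24 among controls. For the difference of treatment effects 0 of 9 members passed in limma, where 0.0303% of all genes were called, 0.00758% with the higher value in the microsystem and 0.0227% with the lower, and 970 genes had an unadjusted p under 0.05.

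**Figure D3:**
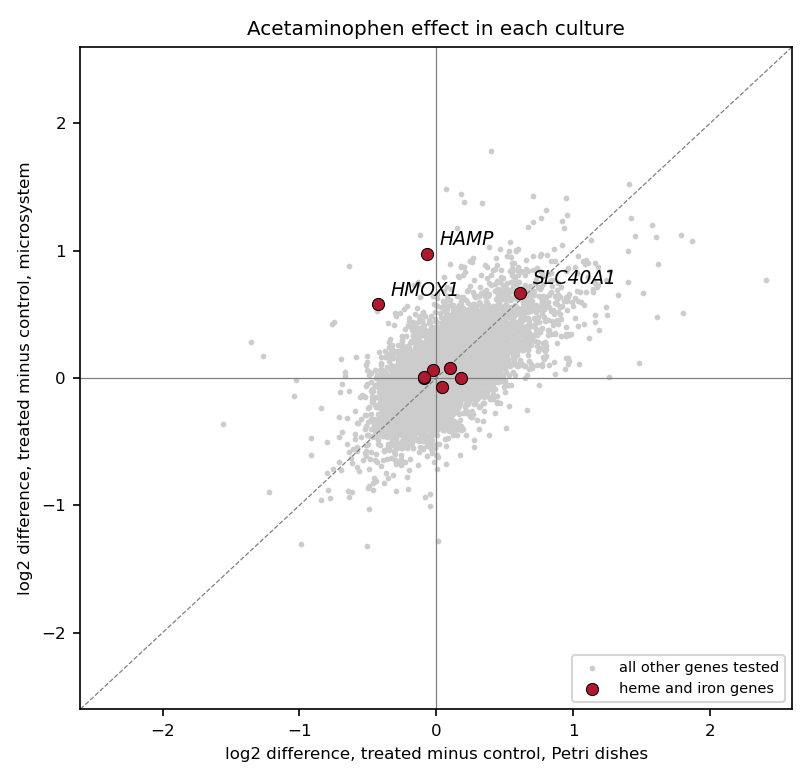
Log2 treatment difference in Petri dishes (x axis) against that in the microsystem (y axis) for the members (red) and the other genes tested (grey), with the line of equal effects dashed. In the microsystem and in Petri dishes, HMOX1 lies at 0.58 and -0.43, HAMP at 0.98 and -0.07, and SLC40A1, near the line, at 0.67 and 0.61.

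The rest of the pathway was followed through 9 gene lists with 110 tested symbols, also chosen with earlier results of these data known. TFR2, SLC11A2 and ISCU count in more than 1 list. Shares of all genes called, to set beside each list count, were 41.4% between treated cultures and 44.9% between control cultures. For acetaminophen they were 9.06% in the microsystem and 10.4% in Petri dishes. A list count near these shares does not set the list apart. Of 23 genes of hepcidin regulation, acetaminophen in the microsystem raised 7 and lowered 1, with a median of 0.21 against -0.01 over all genes. FURIN, a protease that cleaves hepcidin and hemojuvelin precursors, rose by 1.26 ± 0.20 (adjusted p = 0.00261), the BMP receptor BMPR2 by 0.68 (0.00507), the inhibitory SMAD7 by 0.57 (0.00592) and the BMP target ID3 by 0.47 (0.0132). TFR2, the second transferrin receptor and an iron sensor of hepatocytes, fell by 0.46 (0.0208). Without both microsystem arrays numbered 3, the count was 5 risen and 0 fallen. In Petri dishes 2 of the 23 rose and 2 fell, with a median of 0.08: FURIN rose by 0.76 (0.0283) and STAT3, the interleukin 6 signal carrier, by 0.56 (0.0062), while TFR2 fell by 0.46 (0.0176) and the receptor chain IL6ST by 0.32 (0.0147). No gene of this list passed the test for a difference between the treatment effects.

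Between cultures, 6 of the 23 hepcidin regulators rose and 8 fell with the microsystem among treated cells, and 2 rose and 10 fell among controls (medians of -0.08 and 0.03, against 0.00 and 0.01 over all genes). Among controls SMAD9, a BMP-activated SMAD, was lower by 1.76 (adjusted p = 2.48e-07), SMAD7 by 0.93 (1.34e-05) and TMPRSS6, the protease that restrains hepcidin expression, by 0.92 (2.35e-06), while FURIN was higher by 1.05 (0.000836). Among treated cells SMAD9 was lower by 1.51 (8.49e-07) and FURIN was higher by 1.55 (4.9e-05).

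Of 9 tested heme synthesis genes, 5 rose and 1 fell with the microsystem both among treated cells (median 0.51) and among controls (median 0.48). Among controls the final enzyme FECH, which inserts iron into the porphyrin ring, was higher by 1.78 ± 0.12 (adjusted p = 2.32e-07), UROS by 1.001 (6.17e-06), UROD by 0.99 (2.6e-06) and the rate-limiting ALAS1 by 0.85 (8.02e-06). ALAD, the next enzyme after ALAS1, was the one that fell, by 0.57 among treated cells (0.000183) and by 0.67 among controls (4.18e-05), and CPOX, PPOX and TMEM14C did not pass in either comparison. With acetaminophen 1 of the 9 rose in the microsystem, the porphyrin transporter ABCB6 by 0.31 (0.047), and 0 passed in Petri dishes; without both microsystem arrays numbered 3 these counts were 0 and 1.

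Of 9 tested genes that bind or move heme, 3 rose and 2 fell with the microsystem in each culture comparison. Over all genes 41.4% were called among treated cells and 44.9% among controls. The list medians were 0.15 among treated cells and 0.11 among controls. Among controls the heme exporter FLVCR1 was higher by 0.72 (adjusted p = 0.000111), the folate and heme carrier SLC46A1 by 0.69 (9.26e-05), and FLVCR2 was lower by 0.66 (0.000604). SLC48A1, a heme transporter of endosomes and lysosomes, rose with acetaminophen by 0.55 in the microsystem (0.00753) and by 0.61 in Petri dishes (0.00276). Haptoglobin (HP), the plasma scavenger of hemoglobin, fell by 1.30 ± 0.34 in the microsystem (0.0323). In Petri dishes its difference was -0.99 ± 0.34, which did not pass (0.0841). Its treatment effects differed between the cultures by -0.31 (0.926). Without both microsystem arrays numbered 3, no gene of this list was called for treatment in the microsystem.

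Of 17 partners in iron uptake, reduction, storage and export, 6 rose and 7 fell with the microsystem among treated cells (median 0.06). Among controls 4 rose and 5 fell (median -0.11), where 44.9% of all genes were called, against 41.4% among treated cells. Among controls ceruloplasmin (CP), the ferroxidase that oxidises exported iron, was lower by 1.39 ± 0.17 (adjusted p = 2.07e-05) and the divalent metal transporter SLC11A2 by 1.01 (4.05e-06), while the ferrireductase STEAP3 was higher by 1.33 (6.26e-06) and the importer SLC39A14 by 0.89 (0.00214). Acetaminophen raised 1 and lowered 1 of the 17 in each culture: MCOLN1, a lysosomal cation channel, rose by 0.50 in the microsystem (0.0121) and by 0.44 in Petri dishes (0.0172), and TFR2 fell as given above. Without both microsystem arrays numbered 3, the counts for treatment were 1 risen and 0 fallen in the microsystem and 2 and 2 in Petri dishes.

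Of 6 tested iron regulatory protein genes and their controls, 2 rose and 1 fell with the microsystem among treated cells and 2 rose among controls. The genes called were FBXL5, CUL1 and ISCU. ACO1, which encodes an iron regulatory protein, gave -0.04 among treated cells (adjusted p = 0.713) and -0.02 among controls (0.827). FBXL5, the iron-sensing subunit that directs degradation of iron regulatory protein, was higher by 0.45 among treated cells (adjusted p = 0.00194) and by 0.36 among controls (0.00815). ISCU, the scaffold for iron-sulfur clusters, rose with acetaminophen in Petri dishes by 0.46 (0.00147), and none of the 6 passed for treatment in the microsystem. In a list of 6 other genes gathered as carriers of iron-responsive elements, 1 rose and 2 fell with the microsystem among treated cells, and 1 rose and 3 fell among controls, SLC11A2 included. With acetaminophen HIF3A fell in the microsystem by 0.29 (0.0476), a call lost without both microsystem arrays numbered 3, and 0 passed in Petri dishes. The HIF3A means in the microsystem, 5.263 in treated cells and 5.549 in controls, lay below the array medians (5.556 to 5.629). Whether HIF3A stands above background was not tested. Of 18 genes of iron-sulfur cluster assembly, 4 rose and 2 fell with the microsystem among treated cells, where 41.4% of all genes were called. Among controls 7 rose and 1 fell, where 44.9% were called. The medians were 0.09 and 0.21, against 0.00 and 0.01 over all genes. MMS19, of the cytosolic assembly machinery, was the one that fell among controls, by 0.53 (0.000141). With acetaminophen ISCU alone passed, in Petri dishes, and 0 passed in the microsystem. Without both microsystem arrays numbered 3, the counts among treated cells were 2 risen and 1 fallen for cluster assembly. For the iron regulatory protein genes and their controls they were 1 risen and 0 fallen.

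HMOX1 shares its culture difference in direction with most tested NRF2 targets outside heme and iron, of which 14 of 17 rose and 1 fell with the microsystem among treated cells and 14 rose and 0 fell among controls. Their medians were 0.91 and 0.95, against 0.00 and 0.01 over all genes. Among controls AKR1B10, an aldo-keto reductase, was higher by 5.44 ± 0.25 (adjusted p = 1.72e-08), EPHX1, an epoxide hydrolase, by 2.08 (3.61e-06), GCLM, of glutathione synthesis, by 1.92 (1.9e-07) and NQO1, a quinone reductase, by 1.48 (1.01e-06). The AKR1B10 mean in Petri controls was 5.595, within the range of array medians (5.556 to 5.629). Whether that level stands above background was not tested, so the size of the AKR1B10 difference is uncertain. With acetaminophen 1 rose in the microsystem (GCLC, the catalytic subunit of glutathione synthesis, by 0.29, 0.0397). In Petri dishes 2 rose and 1 fell: CES1 rose by 0.57 (0.046) and SRXN1 by 0.34 (0.0244), and the cystine carrier SLC7A11 fell by 1.27 ± 0.25 (0.00539). Without both microsystem arrays numbered 3, the culture counts were 13 risen and 1 fallen among treated cells and 15 and 0 among controls, and 0 passed for treatment in the microsystem.

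Of 8 tested transcription factors and partners that act on HMOX1, 2 rose and 4 fell with the microsystem among treated cells and 2 rose and 3 fell among controls (medians -0.20 and -0.14). Among controls the RNA of NFE2L2, which encodes NRF2, was lower by 0.59 (adjusted p = 0.000205), NFE2L1 by 0.61 (9.26e-05) and MAFF by 0.74 (8.44e-05), while KEAP1, the adaptor that marks NRF2 for degradation, was higher by 0.70 (1.66e-05). None of the 8 passed for treatment in either culture; the smallest adjusted p was 0.179 in the microsystem (NFE2L2, 0.21) and 0.0885 in Petri dishes (KEAP1, 0.23). No list held a gene that passed for the difference of treatment effects.

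**Figure D4:**
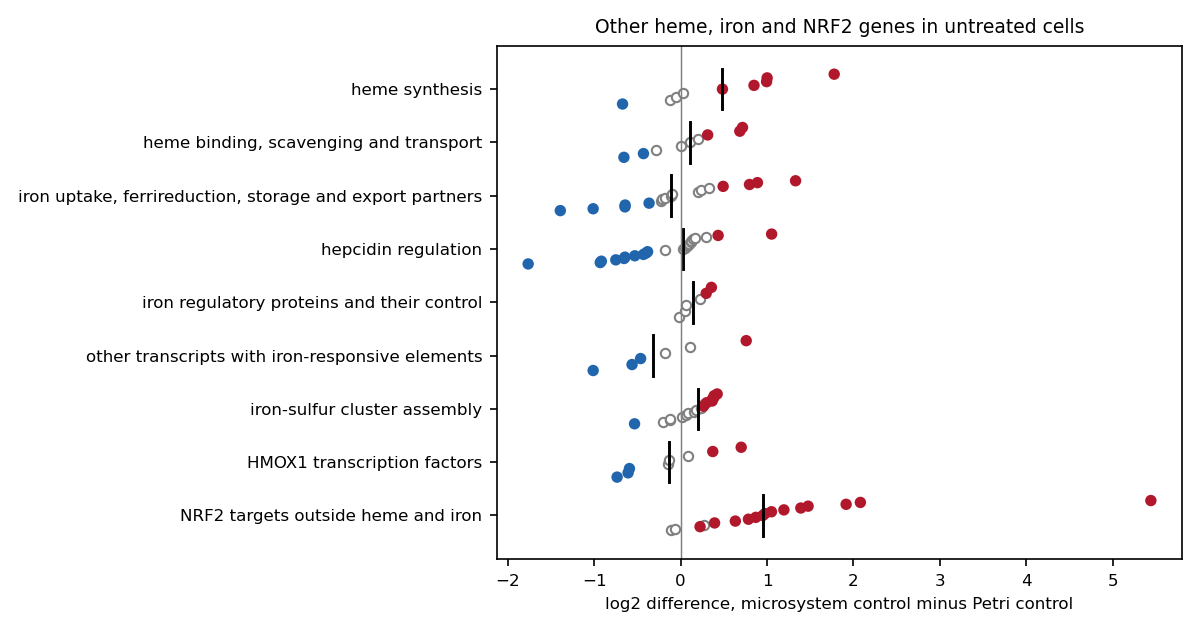
Log2 difference between microsystem and Petri controls for every tested gene of the 9 lists (1 point per gene; red, higher and blue, lower at adjusted p under 0.05; open, not passed; black bar, list median). The NRF2 targets lie mostly to the right with a median of 0.95, and heme synthesis genes have a median of 0.48.

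The genes most like 4 of the members were ranked by Pearson r over the 12 arrays, which share the 4 groups, so that any gene with the same group pattern scores high. For HMOX1 they were H2AC4 (r = 0.969), IDI1 (0.966) and ZNF280A (0.965). For HAMP they were LARP6 (0.975), NR3C1 (0.974) and MSL2 (0.974), and for SLC40A1 they were TIMP2 (0.986), PLXNB2 (0.974) and ESYT2 (0.974). For TFRC they were STAG2 (0.971), CPPED1 (0.966) and CASD1 (0.965).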

How the data were processed

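The authors deposited log2 intensities for each probe set; per the submitters' processing notes these came from RMA run in Affymetrix Expression Console, with versions not given here. They were used without new normalization. Of 32321 probe sets, 19158 had 1 gene symbol in the probe annotation, 1388 several and 11775 none here; the probe set with the highest mean stood for a gene, and 637 of 18404 genes had over 1. Genes above the 40th percentile of an array on 3 or more arrays were kept (13199), and 5205 were removed.

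The limma package (version 3.58.1, under R 4.3.3) fitted group means over the 12 arrays, using empirical Bayes (8 residual and 5.35 prior degrees of freedom), for 4 comparisons of 2 groups and the difference of treatment effects. Tests were two-sided with Benjamini-Hochberg adjustment over all genes tested. The fit was tested on simulated data. Values for the text were tabulated with Python 3.11.15, and plots drawn with matplotlib 3.10.9. With 3 arrays against 3, an exact permutation test cannot go below 0.1, so none is given.

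The members and the 9 lists (133 symbols) were chosen with earlier results of these data known. All members were named in every comparison, and up to 4 called genes of a list, taken by size of difference (the gene with the smallest adjusted p where none passed). The 3 genes most like a member were named for 4 members. Matches of gene names to RefSeq gave the sequences.

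Replicate numbers were checked for pairing by correlating deviations from the group mean between same-numbered arrays. Treated and control Petri arrays gave r of 0.48, 0.19 and 0.31, all over 0.1, so the numbers may pair these arrays. Arrays with different numbers were not correlated for comparison. Unless another setting is named, values come from the fit without a replicate block. A block within each culture gave 2180 called genes for treatment in Petri dishes, against 1367 without a block. Treated and control microsystem arrays gave 0.11, 0.07 and 0.60. Between cultures, treated arrays gave 0.14, -0.14 and 0.13, and control arrays 0.18, -0.03 and 0.13. Alternatives were a replicate block (over all arrays, or within each culture), only the arrays compared, quantile normalization, equal array medians, other filters, averaging the probe sets of a gene, an intensity trend, array weights and leaving out arrays.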

Additional observations from a re-analysis of the deposited data

Results flagged for a closer look

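HMOX1 stood out among the members because acetaminophen moved it in opposite directions in the cultures: all 3 treated arrays were above all 3 control arrays in the microsystem and below them in Petri dishes. Treated and control arrays did not overlap for 27.6% of all genes tested in the microsystem and 34.5% in Petri dishes. How many of all genes did so in opposite directions was not counted. The Petri fall of HMOX1 was not called in 6 of 12 single omissions. The difference of its treatment effects, microsystem minus Petri, was 1.01 on the log2 scale, with adjusted p = 0.0565 in limma and 0.00233 to 0.184 when 1 array was left out. The cause was not tested.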

How the results depend on the processing

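Of 540 member differences recomputed with 1 array left out, 489 kept their direction and call, 27 lost a call, 3 gained one and 21 changed sign; of 468 under the other alternatives, the numbers were 444, 7, 7 and 10. The changes of sign were all in differences that had not passed, with adjusted p of 0.349 or higher under the alternative. The calls of members that changed are given beside each gene above, and the replicate block changed no call of a member other than that of the HMOX1 difference. Counts of list members without both microsystem arrays numbered 3 were computed after seeing the data.

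The difference of treatment effects, with 0 members and 4 genes called, gave 1 member and 18 genes with a replicate block, 1 and 24 with a replicate block within each culture, 1 and 7 with quantile normalization, 1 and 10 with an intensity trend, 2 and 54 with array weights, 11 genes without both microsystem arrays numbered 3, and 0 to 1 members and 1 to 13 genes with 1 array left out. Treatment in Petri dishes, with 1367 genes called, gave 2180 with the replicate block within each culture, 3602 with array weights and 701 to 1520 with 1 array left out. Its 2 members became 1 with array medians set equal and 1 to 2 with 1 array left out, and with array weights HMOX2 was called in addition to them. Treatment in the microsystem, with 1196 genes called, gave 2109 with the block within each culture, 446 with only the arrays compared, 677 without both microsystem arrays numbered 3 and 460 to 1440 with 1 array left out.

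Changed signs with quantile normalization were FTL for treatment in Petri dishes (0.011), BLVRB for treatment in the microsystem (-0.019) and for culture in controls (-0.066), and BLVRA for the difference of treatment effects (0.024). With array medians set equal they were FTL in Petri dishes (0.014) and HMOX2 in the microsystem (0.026). With array weights they were BLVRB (-0.051) and TF (-0.029) in the microsystem and the BLVRB difference (-0.033), and without both microsystem arrays numbered 3 the SLC40A1 difference (-0.020). With 1 array left out, treatment in the microsystem ranged from -0.098 to 0.139 for BLVRB, -0.056 to 0.094 for TF and -0.096 to 0.081 for HMOX2. Treatment in Petri dishes ranged from -0.087 to 0.018 for FTL, -0.322 to 0.132 for HAMP and -0.001 to 0.075 for TFRC. The difference of treatment effects ranged from -0.011 to 0.226 for BLVRB, -0.046 to 0.012 for BLVRA and -0.020 to 0.137 for SLC40A1, and culture in controls from -0.134 to 0.103 for BLVRB. The cause was not tested.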
